A study of Mus musculus with 2 samples.

Results

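Transcripts of the interleukin-1 (IL-1) family and of the inflammasome were counted in each cell class of mouse fracture callus. The set was chosen by name, with earlier results of these data known, and held 10 of the 32285 genes in the files. They were the ligand genes Il1a, Il1b, Il18 and Il1f9, the antagonist gene Il1rn, the receptor genes Il1r1, Il1r2 and Il1rap, and the inflammasome genes Nlrp3 and Casp1. All 10 were found by symbol, and each was counted in both libraries.

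The data were scRNA-seq of the callus, the repair tissue around a healing fracture, captured with 10x Genomics 3′ chemistry (V3). The mice were wild-type (C57BL/6J, male, aged 12 weeks per the study's methods), and each had a femoral fracture. Calluses were taken 10 or 20 days post fracture, from 5 mice each. The labels gave neither library, MGJ nor MGJ2, a day, the barcodes do not tell mice apart, and whether calluses were pooled is not given in the sources used here, so the libraries stand side by side without a comparison of days and without a test.

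IL-1α and IL-1β, encoded by Il1a and Il1b, bind the signalling receptor encoded by Il1r1, which needs the accessory chain encoded by Il1rap to signal through MyD88. The pathway is held back by the receptor antagonist encoded by Il1rn and by the decoy receptor encoded by Il1r2, which binds the ligand but carries no signalling domain. Pro-IL-1β and pro-IL-18 are cut to their active forms by caspase-1, the product of Casp1, within inflammasomes such as the one built on NLRP3. In fractures, IL-1 is among the early inflammatory signals, and neutrophils, monocytes and macrophages are known sources.

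All 10 members are protein-coding genes (GENCODE release M21, GRCm38). Il1a (chr2:129299610-129309972) and Il1b (chr2:129364570-129371139) lie on the minus strand of chromosome 2, 54.6 kb apart. Il1f9 (chr2:24186476-24193568) and Il1rn (chr2:24336853-24351494) lie on the plus strand of the same chromosome, 143 kb apart. Il1r2 (chr1:40074079-40125231) and Il1r1 (chr1:40225080-40317257) are neighbours on the plus strand of chromosome 1, with a gap of 99.8 kb. Il1rap (chr16:26581704-26730117), Il18 (chr9:50554827-50581840), Casp1 (chr9:5298517-5307265) and Nlrp3 (chr11:59541568-59566956) are also on the plus strand.

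The 250 bases before the RefSeq start of the 3 ligand genes with high levels in neutrophil-like cells are shown because they share a cell class while differing in the other classes that hold them (RefSeq, GRCm38.p6; strand of the gene, 5′ to 3′). Capitals mark matches, on either strand, to TATAAA (the TATA box), TGANTCA (AP-1), GAGGAA (the core of PU.1 sites), TTNNGNAA (C/EBP) or the kappaB consensus.
Il1b, chr2:129371140-129371389, minus strand: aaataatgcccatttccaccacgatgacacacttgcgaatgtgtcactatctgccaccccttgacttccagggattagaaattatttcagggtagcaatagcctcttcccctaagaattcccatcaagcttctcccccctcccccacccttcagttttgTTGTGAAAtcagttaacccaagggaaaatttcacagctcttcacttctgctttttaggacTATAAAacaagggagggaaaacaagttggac
Il1a, chr2:129309973-129310222, minus strand: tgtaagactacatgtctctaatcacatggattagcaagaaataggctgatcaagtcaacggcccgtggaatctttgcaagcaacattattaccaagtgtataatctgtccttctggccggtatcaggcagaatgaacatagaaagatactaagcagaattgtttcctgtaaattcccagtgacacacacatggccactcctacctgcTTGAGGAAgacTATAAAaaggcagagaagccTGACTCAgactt
Il1f9, chr2:24186226-24186475, plus strand: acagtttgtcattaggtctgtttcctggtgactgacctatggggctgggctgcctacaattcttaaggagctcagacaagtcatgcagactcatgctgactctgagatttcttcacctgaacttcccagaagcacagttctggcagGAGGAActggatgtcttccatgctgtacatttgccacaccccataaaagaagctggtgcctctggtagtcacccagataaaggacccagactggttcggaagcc

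A TATAAA match began 31 bases before the start of Il1b and 32 bases before that of Il1a, and 12.4% of the 32851 RefSeq windows of this length held one. Il1b also held a C/EBP match 91 bases before its start. Il1a also held an AP-1 match 12 bases before its start (6.75% of windows) and a GAGGAA match 41 bases before it (23.3% of windows), and that GAGGAA lies within its C/EBP match (36.8% of windows). In Il1f9 the only match was GAGGAA, 104 bases before the start. The kappaB consensus (7.25% of windows) had no match in these 3 windows. Over the 14 windows of all 10 members, kappaB letters were found in 1 window each of Il1r1 and Nlrp3, and AP-1 letters in 1 window each of Il1a and Il1rn. A match describes letters only.

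Library MGJ held 135304426 UMIs (unique molecular identifiers, 1 count per captured RNA molecule) in 14295 barcodes, and library MGJ2 held 61130834 in 8009. Barcodes with at least 200 genes and at most 20% mitochondrial UMIs that were not called doublets were kept, 13320 and 7584 cells. Doublet calls, at 1.04% and 2.84% of the barcodes within these limits, were below the expected 10.8% and 6.24%, so doublets may be among the kept cells. The libraries shared 19 barcodes (0.133% and 0.237%). The clusters, 31 in all, were named from marker genes, with the ending "-like", and 17 classes in MGJ and 12 in MGJ2 held at least 50 cells. The libraries were clustered together without a correction between them, and 16 of the 31 clusters held cells mostly of 1 library. A class of the same name can therefore rest on different clusters in MGJ and MGJ2. Most neutrophil-like cells of MGJ lay in cluster 2 and most of MGJ2 in cluster 3, and the leading genes of cluster 2 held no neutrophil marker. The fibroblast-like, osteoblast-like and basophil-like clusters, the smallest chondrocyte-like cluster (cluster 30) and 2 of the 3 monocyte-like clusters (4 and 12) also had no own marker among their 10 leading genes. The myeloid progenitor-like cluster was led by basophil and mast cell markers (Mcpt8, Ms4a2 and Cpa3) beside its own (Ctsg, Mpo, Prtn3 and Ms4a3), so its name is mixed. Cluster 0, with 2442 cells in MGJ, was left unnamed because its median of 1721.5 UMIs per cell was below 1/3 of the library median. Its best marker list was that of neutrophils, and it is reported beside the neutrophil-like cells. Cluster 19, with 172 cells in MGJ and 218 in MGJ2, was also left unnamed. Its best list was that of myeloid progenitors, but neutrophil markers (Camp and Ngp) were among its leading genes. It is not ranked among the classes. The neutrophil markers summed to 235452 CPM (summed UMIs of the genes, scaled to 1000000 UMIs of the class) in neutrophil-like cells of MGJ and to 83888 CPM in cluster 0. In the other classes of MGJ, 5 to 10 of the 10 markers were above 0, with sums from 571 CPM in NK cell-like to 6714 CPM in monocyte-like cells. In MGJ2 the same sums ran from 277 to 4370 CPM outside neutrophil-like cells, against 197195 CPM in them. The part of such RNA in the low member levels of other classes was not tested.

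Levels are given in CPM, with exact Poisson 95% intervals. All intervals cover counting error only. A 3′ UMI count is 1 per captured molecule and is not scaled by gene length.

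**Figure D1:**
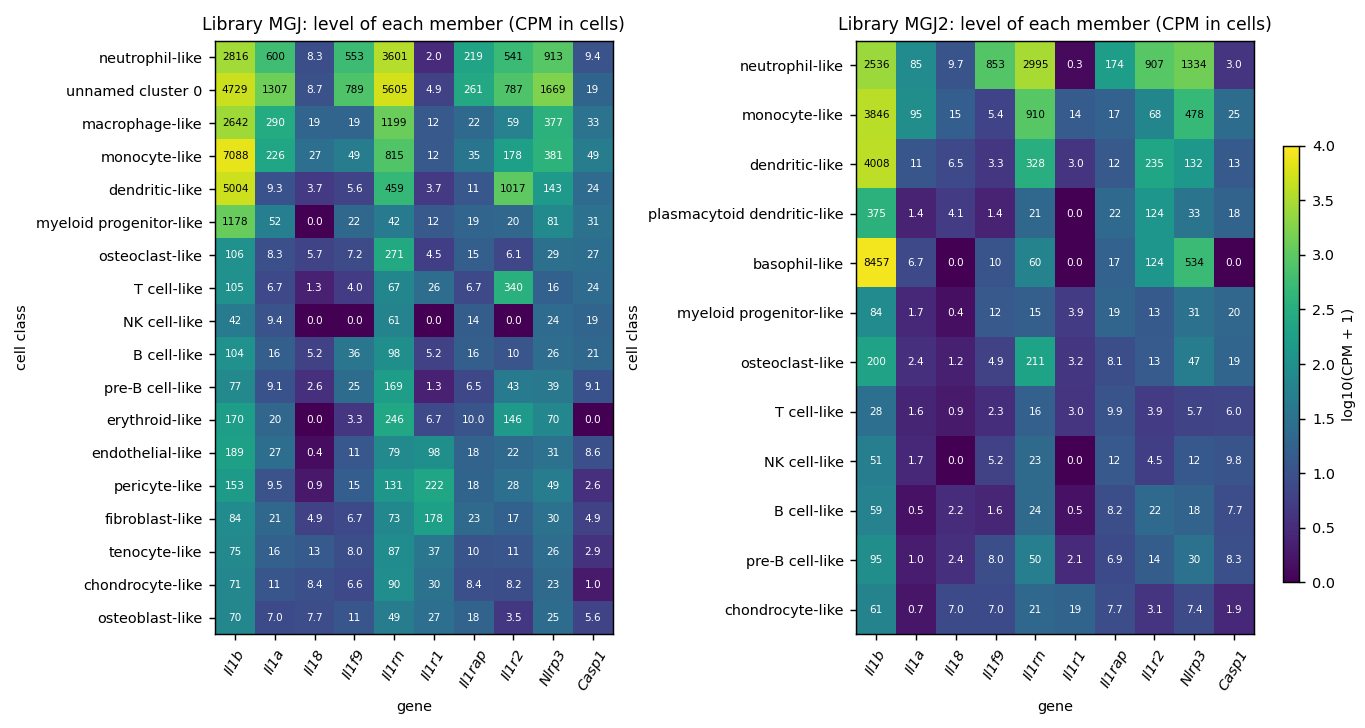
Level of each member (columns) in each cell class of at least 50 cells (rows), library MGJ on the left and MGJ2 on the right, printed in CPM and coloured by log10(CPM + 1). The ligands Il1b and Il1a, the antagonist Il1rn and Nlrp3 stood high in the myeloid rows, whereas Il1r1 stood highest in pericyte-like (222 CPM) and fibroblast-like cells (178 CPM) of MGJ and in chondrocyte-like cells (18.7 CPM) of MGJ2, where the first 2 classes held too few cells to be reported.

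Il1b, a ligand gene whose product is cut by caspase-1, was highest in monocyte-like and dendritic-like cells of MGJ and in basophil-like and dendritic-like cells of MGJ2. In MGJ its level was 7088 CPM in monocyte-like cells (interval 7012 to 7165, 609 cells), 5004 CPM in dendritic-like cells, 2816 CPM in neutrophil-like cells and 2642 CPM in macrophage-like cells. Cluster 0 stood at 4729 CPM, between the dendritic-like and neutrophil-like cells. All neighbours in this order differed beyond counting error down to myeloid progenitor-like cells (1178 CPM, 61 cells). The remaining classes held 42.5 to 189 CPM, and NK cell-like cells were the lowest, with 9 UMIs.

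In MGJ2, Il1b was highest in basophil-like cells, at 8457 CPM (interval 8130 to 8794). This level rests on 75 cells, and in 10 alternative treatments of the data the class stayed highest in 7, at 1252 to 8550 CPM. The cluster was led by Cyp11a1, Cdh1, Slc18a2 and Gata2, and 3 basophil-like cells were found in MGJ. Dendritic-like cells held 4008 CPM, monocyte-like cells 3846 CPM and neutrophil-like cells 2536 CPM. Monocyte-like cells supplied 59.6% of all Il1b UMIs of MGJ2 while making up 21.9% of its cells. In MGJ the largest supplier was the macrophage-like class, with 31.2% of Il1b UMIs from 12.7% of cells, followed by monocyte-like cells with 26.4% from 4.57%.

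The share of cells with at least 1 Il1b UMI gave a similar order. Since a deep cell is detected more easily, each cell was thinned to 1000 UMIs by random draw, and shallower cells were left out. After thinning, 79.4% of monocyte-like cells in MGJ carried Il1b (598 cells, 11 left out), against 64.4% of neutrophil-like cells (2338 cells, 105 left out) and 48.4% of macrophage-like cells (1630 cells, 55 left out). Chondrocyte-like cells, taken as the reference because cartilage cells should hold little Il1b, stood at 4.23% (2835 cells, 19 left out). Unthinned, that share was 34.2% at a median of 21215 UMIs per cell. In MGJ2 the thinned shares were 79.7% in basophil-like, 75.9% in dendritic-like, 71.5% in monocyte-like and 64.0% in neutrophil-like cells, with 5.67% in chondrocyte-like cells.

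Il1a, the gene of the ligand that is active without caspase-1, had a narrower distribution. In MGJ its level was 600.3 CPM in neutrophil-like cells (interval 582 to 619), 290.3 CPM in macrophage-like cells and 226 CPM in monocyte-like cells. Cluster 0 held 1307 CPM, above all named classes. In 10 alternative treatments neutrophil-like cells of MGJ stayed highest in Il1a in 7, at 69.2 to 873 CPM. Dendritic-like cells, which were second for Il1b, held 5 UMIs of Il1a (9.28 CPM) in MGJ and 39 UMIs (10.6 CPM) in MGJ2. The Il1a share of the UMIs of both ligands was 0.185% in dendritic-like cells of MGJ and 17.6% in neutrophil-like cells.

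In MGJ2 the level of Il1a was 95.1 CPM in monocyte-like cells and 84.7 CPM in neutrophil-like cells, and no other named class exceeded 10.6 CPM. Monocyte-like cells stayed highest there in 9 of 10 alternative treatments. Il1a made up 3.23% of the UMIs of both ligands in neutrophil-like cells of MGJ2. Day, library and the clusters behind each class cannot be told apart in these values, because each library is 1 sample with an unknown day.

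Il1f9 encodes IL-36γ, a ligand of the IL-36 receptor. Its level was highest among named classes in neutrophil-like cells, at 553 CPM in MGJ and 853 CPM in MGJ2, and at 789 CPM in cluster 0. They stayed highest in 9 of 10 alternative treatments in each library, at 222 to 644 CPM and 537 to 856 CPM. The next named class held 48.5 CPM in MGJ (monocyte-like) and 12.2 CPM in MGJ2 (myeloid progenitor-like). In MGJ2, 93.1% of all Il1f9 UMIs came from neutrophil-like cells, which made up 30.3% of the cells. Thinned shares of neutrophil-like cells with Il1f9 were 37.8% and 48.4%, against 0.529% of chondrocyte-like cells in MGJ and 0 of 141 in MGJ2.

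Il18 encodes IL-18, which is cut by caspase-1 like IL-1β. Its level was 27.5 CPM in monocyte-like cells (128 UMIs) and 19.4 CPM in macrophage-like cells (287 UMIs) of MGJ. Monocyte-like cells of MGJ2 held 14.8 CPM (230 UMIs) and stayed highest in 9 of 10 alternative treatments. Tenocyte-like cells of MGJ stood at 12.8 CPM, below macrophage-like cells and above chondrocyte-like cells (8.39 CPM). No Il18 UMI was found in NK cell-like cells of either library, which allows levels of up to 3 UMIs per class, 14.2 CPM in MGJ and 1.05 CPM in MGJ2. Chondrocyte-like cells supplied 39.2% of Il18 UMIs in MGJ from 21.4% of cells. These deep cells held a larger part of all UMIs, 61053170 of the 131606692 in kept cells. Their level of Il18 was lower than that of monocyte-like cells.

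Il1rn, the antagonist gene, followed another order than Il1b. It was highest in neutrophil-like cells, at 3601 CPM in MGJ (interval 3557 to 3646) and 2995 CPM in MGJ2 (interval 2957 to 3034), and reached 5605 CPM in cluster 0. In 10 alternative treatments they stayed highest in 8 in MGJ, at 851 to 4374 CPM, and in 9 in MGJ2, at 1454 to 3014 CPM. Macrophage-like cells of MGJ held 1199 CPM, and monocyte-like cells held 815 CPM in MGJ and 910 CPM in MGJ2. Osteoclast-like cells, the bone-resorbing cells of the callus, held 271 CPM and 211 CPM. Thinned shares with Il1rn were 78.7% and 73.2% of neutrophil-like cells, and 6.67% and 2.84% of chondrocyte-like cells.

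Within a class, the UMIs of ligand and antagonist can be set against each other without regard to depth. Il1b made up 43.9% of Il1b and Il1rn UMIs in neutrophil-like cells of MGJ (exact binomial interval 43.4 to 44.3%) and 45.8% in those of MGJ2 (interval 45.4 to 46.3%). In monocyte-like cells it made up 89.7% and 80.9%, in macrophage-like cells of MGJ 68.8%, and in dendritic-like cells 91.6% and 92.4%. Basophil-like cells of MGJ2 held 2519 Il1b UMIs and 18 Il1rn UMIs, a share of 99.3%. Antagonist UMIs therefore outnumbered those of Il1b in neutrophil-like cells of both libraries, and ligand UMIs outnumbered those of the antagonist in monocyte-like, macrophage-like and dendritic-like cells.

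Osteoclast-like cells also held more Il1rn than Il1b UMIs in MGJ, with 28.1% from Il1b (interval 25.4 to 31.0%). In MGJ2 their share was 48.6% (interval 45.5 to 51.7%), which includes equal parts. In chondrocyte-like cells the share was 44.2% in MGJ, within the interval of neutrophil-like cells of that library, and 74.4% in MGJ2, between the neutrophil-like and monocyte-like values. Over all kept cells it was 60.5% and 70.9%.

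**Figure D2:**
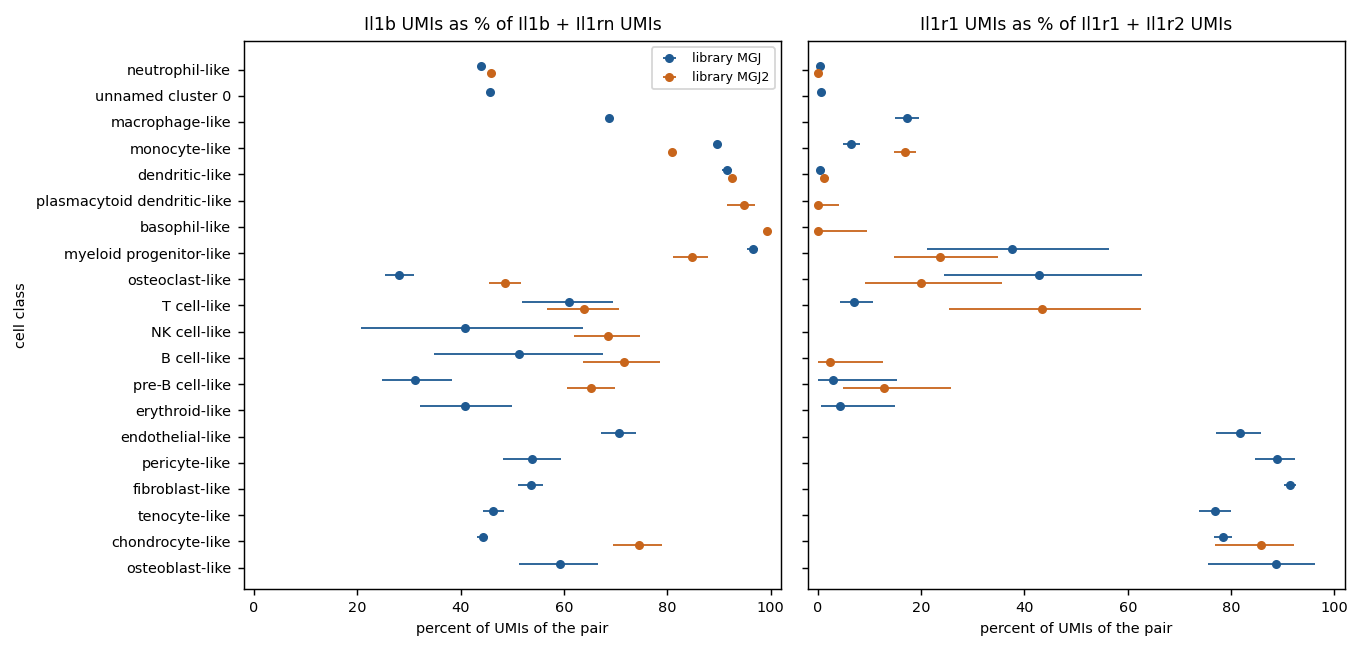
Percent of the UMIs of a pair that came from the first gene, by cell class, for Il1b with Il1rn (left) and Il1r1 with Il1r2 (right). Points are library values with exact binomial 95% intervals, for classes with at least 20 UMIs of the pair. Stromal and vascular classes lay at 76.9% Il1r1 or above, and neutrophil-like and dendritic-like cells at 1.26% or below.

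Il1r1, the gene of the signalling receptor, was highest outside the myeloid classes. In MGJ it led in pericyte-like cells, at 222 CPM (interval 196 to 251, 142 cells), then fibroblast-like cells at 178 CPM (interval 170 to 186, 578 cells) and endothelial-like cells at 98.1 CPM. Tenocyte-like cells held 36.6 CPM, chondrocyte-like cells 29.9 CPM and osteoblast-like cells 27.5 CPM, and the last 2 did not differ beyond counting error. T cell-like cells held 25.6 CPM, from 19 UMIs. Monocyte-like and macrophage-like cells stood at 12.03 and 12.3 CPM, and neutrophil-like cells at 1.97 CPM, from 14 UMIs in 2443 cells.

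The thinned share of cells with Il1r1 was 17.4% in pericyte-like and 15.1% in fibroblast-like cells, and 0.257% in neutrophil-like cells, which serve as the reference for background. Unthinned, the fibroblast-like cells had a median of 17674.5 UMIs and the neutrophil-like cells one of 2220 UMIs. In MGJ2, which held few stromal cells, chondrocyte-like cells were the highest reported class, at 18.7 CPM (78 UMIs), followed by monocyte-like cells at 13.7 CPM (213 UMIs), and they stayed highest in 5 of 10 alternative treatments. Neutrophil-like cells of MGJ2 held 2 UMIs of Il1r1 (0.253 CPM).

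Il1r2, the gene of the decoy receptor, was a neutrophil-like and dendritic-like gene by level. In MGJ the levels were 1017 CPM in dendritic-like cells (548 UMIs, 76 cells), 541 CPM in neutrophil-like cells and 787 CPM in cluster 0. In MGJ2 the order was the reverse, with 907 CPM in neutrophil-like cells and 235 CPM in dendritic-like cells. The leading class stayed highest in 9 of 10 alternative treatments in each library, at 599 to 1081 CPM in MGJ and 506 to 910 CPM in MGJ2. The dendritic-like cells of both libraries belonged to 1 cluster, led by Ccl22, Cd209a, Zfp366 and Ccr7.

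T cell-like cells of MGJ held 340 CPM of Il1r2, and 250 of their 252 UMIs came from cluster 17, led by Tnfrsf4, Icos and Cxcr6 with Il2ra and Ctla4 (412 CPM, 176 cells). The same cluster in MGJ2 held 6 UMIs (4.22 CPM, 254 cells). After thinning, 15.02% of T cell-like cells in MGJ carried Il1r2, against 0 of 69 NK cell-like cells, which allows up to 4.35% (median depths 3007 and 2927 UMIs), and 0.504% of T cell-like cells in MGJ2. Macrophage-like cells, at 59.4 CPM, were below the monocyte-like cells of MGJ (178 CPM).

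Receptor and decoy were set against each other in the same way as ligand and antagonist. Il1r1 made up 91.5% of Il1r1 and Il1r2 UMIs in fibroblast-like cells of MGJ (interval 90.1 to 92.6%), 88.9% in pericyte-like, 88.6% in osteoblast-like, 81.7% in endothelial-like, 78.5% in chondrocyte-like and 76.9% in tenocyte-like cells. In neutrophil-like cells it made up 0.362% in MGJ and 0.0279% in MGJ2. Monocyte-like cells lay between, at 6.33% and 16.8%, and macrophage-like cells of MGJ at 17.2%. The chondrocyte-like cells of MGJ2, at 85.7% (interval 76.8 to 92.2%), were on the receptor side as in MGJ.

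Il1rap, the gene of the accessory chain, did not follow Il1r1. Its level was 219 CPM in neutrophil-like cells of MGJ and 174 CPM in those of MGJ2, and 261 CPM in cluster 0. Neutrophil-like cells stayed highest in 9 of 10 alternative treatments in each library, at 95.1 to 235 CPM and 122 to 174 CPM. The next named class held 34.6 CPM in MGJ (monocyte-like) and 22.1 CPM in MGJ2 (plasmacytoid dendritic-like, not separated from myeloid progenitor-like cells at 19.2 CPM). Unnamed cluster 19, which is not ranked, held 188 of the 2174 Il1rap UMIs of MGJ2. Fibroblast-like and pericyte-like cells, the classes highest in Il1r1, held 22.9 and 18.2 CPM of Il1rap. Chondrocyte-like cells held 8.44 and 7.68 CPM. The product of Il1rap also serves the receptors of IL-33 and IL-36.

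Nlrp3, the sensor gene, was highest in neutrophil-like cells, at 913 CPM in MGJ and 1334 CPM in MGJ2, with 1669 CPM in cluster 0. In 10 alternative treatments they stayed highest in 7 in MGJ, at 202 to 1204 CPM, and in 9 in MGJ2, at 617 to 1341 CPM. Monocyte-like and macrophage-like cells of MGJ held 381 and 377 CPM and did not differ beyond counting error, and monocyte-like cells of MGJ2 held 478 CPM. Basophil-like cells of MGJ2, at 534 CPM (159 UMIs), did not differ from the monocyte-like cells beyond counting error. The thinned shares with Nlrp3 were 49.0% and 54.8% of neutrophil-like cells, and 1.69% of chondrocyte-like cells in MGJ and 0 of 141 in MGJ2.

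Casp1, the caspase gene, had another order. It was highest in monocyte-like cells, at 48.5 CPM in MGJ (226 UMIs) and 25.02 CPM in MGJ2 (389 UMIs), where myeloid progenitor-like cells, at 20.1 CPM, did not differ beyond counting error. Macrophage-like cells of MGJ held 32.6 CPM, and osteoclast-like cells held 27.3 and 19.02 CPM. Macrophage-like, myeloid progenitor-like and osteoclast-like cells of MGJ followed each other without a difference beyond counting error. Neutrophil-like cells, highest in Nlrp3, held 9.40 CPM in MGJ (67 UMIs) and 3.04 CPM in MGJ2 (24 UMIs), and cluster 0 held 18.6 CPM. The thinned shares of neutrophil-like cells with Casp1 were 1.03% and 0.312%, and the reference of chondrocyte-like cells stood at 0.106% in MGJ and 0 of 141 in MGJ2. Those 0 cells allow up to 2.13%, so Casp1 above background was not detectable in neutrophil-like cells of MGJ2 at this depth.

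The neutrophil-like clusters differed among themselves more than the class levels show. Cluster 13 was led by Ltf, Ly6g, Ngp and Cd177, genes of granule-rich young neutrophils, and cluster 8 by Retnlg, Mmp8 and Cxcr2, genes of mature neutrophils. Cluster 2 was led by Cstdc4, Csta3, Stfa2l1, Ccl4 and Ccl3, and cluster 0 by Ccl3, Ccl4, Tnf and Ccrl2. Summed levels of the chemokine and cytokine list Ccl3, Ccl4, Cxcl2, Cxcl3 and Tnf were higher in each step of the order 13, 8, 3, 2 and 0 in MGJ, from 8149 to 116213 CPM. None of the family genes had been used to make the clusters.

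Il1b stood at 457 CPM in cluster 13, 1302 CPM in cluster 8 and 4443 CPM in cluster 2 of MGJ. In MGJ2 it was 161 CPM in cluster 13, 1891 CPM in cluster 8 and 4725 CPM in cluster 3. Il1rn went the same way, from 665 to 1733 and 5795 CPM in MGJ and from 432 to 1729 and 5605 CPM in MGJ2. Antagonist UMIs exceeded ligand UMIs in clusters 13, 8 and 2 of MGJ and in clusters 13 and 3 of MGJ2. Ligand UMIs exceeded antagonist UMIs in cluster 8 of MGJ2 and in the 107 cells of cluster 3 in MGJ, at 6266 against 3816 CPM.

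Nlrp3 went from 126 to 356 and 1497 CPM over clusters 13, 8 and 2 of MGJ, and from 45.8 to 656 and 2664 CPM over clusters 13, 8 and 3 of MGJ2. Il1f9 and Il1rap were lowest in cluster 13 in both libraries, at 148 and 75.4 CPM in MGJ and 167 and 69.3 CPM in MGJ2. Il1a stood apart. It was 91.0 CPM in cluster 13, 94.8 CPM in cluster 8 and 101 CPM in cluster 3 of MGJ, which overlapped within counting error, and 1079 CPM in cluster 2. In MGJ2 the cells of cluster 3 held 177 CPM of Il1a at an Il1b level of 4725 CPM. The Il1a levels of clusters 13 and 8 of MGJ2 are not given here, so this pattern is described for MGJ only.

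Il1r2 was highest in cluster 3, at 2003 CPM in MGJ (107 cells) and 1682 CPM in MGJ2 (1546 cells). It was 667 CPM in cluster 2 and 787 CPM in cluster 0 of MGJ. In that library the clusters with the highest chemokine levels were therefore not those with the most decoy receptor. This was not examined in MGJ2, where clusters 2 and 0 held 6 and 12 cells. Median UMIs per cell were 6001.5 in cluster 13, 3526 in cluster 8, 1930 in cluster 2 and 1721.5 in cluster 0 of MGJ, so the clusters with more Il1b than cluster 13 were also shallower, and the part of depth was not tested.

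Macrophage-like cells also fell into unlike clusters. Cluster 9 of MGJ held 3868 CPM of Il1b, 1729 CPM of Il1rn and 130.04 CPM of Il1r2, and cluster 6 held 1838, 851 and 13.1 CPM. Il1a ran the other way, at 210 CPM in cluster 9 and 343 CPM in cluster 6. In monocyte-like cells of MGJ, cluster 15 held 7021 CPM of Il1b, and in MGJ2 the larger clusters 4 and 12 held 3898 and 4021 CPM.

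The levels were next set against all other cells of the library, for 3 sets of classes. A ratio of at least 2 was counted as higher and of at most 1/2 as lower, among genes with at least 50 UMIs in the library. The members had been chosen with earlier results of these data known, so the counts describe the list and test nothing. In the neutrophil-like set 7 of the 10 members were higher in MGJ, where 8.41% of 14737 genes were, and 6 of the 10 in MGJ2, where 8.32% of 13067 genes were. The median ratio of the members was 6.23 and 5.03, and that of all genes 0.218 and 0.257. In the macrophage-like and monocyte-like set 6 members were higher in MGJ (13% of genes) and 5 in MGJ2 (7.45% of genes), with a median of 2.30 and 2.13 against 0.781 and 0.635 for all genes. In the stromal and vascular set (chondrocyte-like, osteoblast-like, fibroblast-like, tenocyte-like, pericyte-like and endothelial-like cells) 1 member, Il1r1, was higher in each library, where 34.0% and 22.5% of genes were. There, 8 members were lower in each library, as were 18.6% and 26.4% of all genes, and Il18 was neither. The sets were not made up alike in the 2 libraries. In MGJ2 the stromal and vascular set held 141 chondrocyte-like and no fibroblast-like cells, and its other classes held 9 to 49 cells each. The macrophage-like and monocyte-like set of MGJ2 held 31 macrophage-like and 1660 monocyte-like cells.

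Il1f9 had the highest neutrophil-like ratio, 14.0 in MGJ (interval 13.5 to 14.6) and 85.7 in MGJ2 (interval 78.2 to 94.003). In MGJ the other cells include cluster 0, which held 39.9% of the Il1f9 UMIs. The ratio of Il1r2 was 9.06 (interval 8.72 to 9.42) and 16.3 (interval 15.6 to 17.0), and that of Il1rap 9.68 and 11.0. Il1rn stood at 7.99 and 8.60. The corresponding ratio of Il1b was 3.34 in MGJ (interval 3.29 to 3.39) and 1.59 in MGJ2 (interval 1.56 to 1.61). It turned below 1 when fewer clusters were made (Leiden resolution 0.5), to 0.790 in MGJ, where 962 in place of 2443 cells were then neutrophil-like, and to 0.950 in MGJ2, and to 0.786 in MGJ2 when each cell was named by its own marker score. With at most 10% mitochondrial UMIs, which left 853 neutrophil-like cells in MGJ, it was 1.22 there. With cluster 0 counted as neutrophil-like, Il1b in MGJ stood at 5.08 and Il1r2 at 19.5.

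Casp1 was 7.85 times as high in macrophage-like and monocyte-like cells as in the others in MGJ (interval 6.999 to 8.81) and 2.88 times in MGJ2. For Il1b these ratios were 7.83 and 3.999, and for Il18 2.69 (interval 2.39 to 3.03) and 3.75 (interval 3.06 to 4.61). Il1r1 in the stromal and vascular set stood at 6.28 (interval 5.62 to 7.05) and 5.37 (interval 4.39 to 6.56). In that set the ratios of Il1b were 0.0261 and 0.0420, and those of Il1r2 0.0392 and 0.0485, so the signalling receptor and the decoy receptor stood on opposite sides of the remaining cells.

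**Figure D3:**
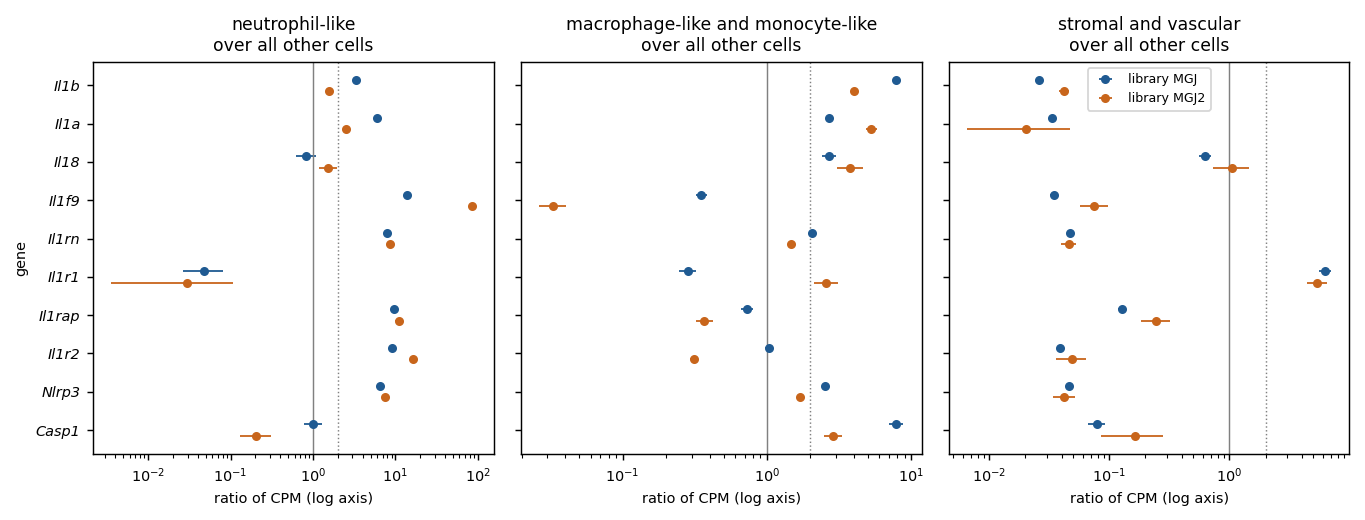
Ratio of CPM in 3 sets of classes to all other cells of the library, on a log axis, for each member and library, with exact conditional binomial 95% intervals. The solid line marks 1 and the dotted line 2. Il1r1 was the only member right of the dotted line in the stromal and vascular set, at 6.28 and 5.37.

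A list of 38 other genes of the family, its signalling chain and the inflammasome was read the same way. Of the 5 other ligand genes, Il1f10 had no UMI in kept cells, and 2 reached 50 UMIs in MGJ and none in MGJ2. Il33, the alarmin gene, was a stromal gene of MGJ, with 98.3 CPM in fibroblast-like and 87.6 CPM in pericyte-like cells, the classes highest in Il1r1. Il1f6, which encodes IL-36α, stood at 33.7 CPM in neutrophil-like cells and 42.5 CPM in cluster 0 of MGJ, the classes that also held Il1f9. Neutrophil-like cells of MGJ2, which were higher in Il1f9 than those of MGJ, held 2.66 CPM of Il1f6 (21 UMIs).

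Of the 6 other receptor and binding protein genes, Il1rl1 (the IL-33 receptor) was highest in fibroblast-like cells of MGJ (641 CPM) and in basophil-like cells of MGJ2 (873 CPM). Il1rl2, which encodes the receptor of IL-36, held 21.8 CPM in fibroblast-like cells of MGJ. Il18r1 was highest in T cell-like cells of MGJ (231 CPM) and in NK cell-like cells of MGJ2 (164 CPM), classes in which Il18 itself had at most 4 UMIs.

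Of the 12 signalling genes, 2 were higher and 3 lower in neutrophil-like cells in each library. Of all genes, 8.41% and 8.32% were higher there, and 69.7% and 66.6% were lower. The median ratio of the signalling genes was 1.09 and 1.06, against 0.218 and 0.257 for all genes. Irak2 held 191 and 291 CPM, and Irak3, whose product restrains the pathway, 195 and 233 CPM. In the stromal and vascular set none of the 12 was higher, where 34.0% and 22.5% of all genes were. There, 6 of them were lower in MGJ and 7 in MGJ2, as were 18.6% and 26.4% of all genes. Of 15 other inflammasome genes, 13 reached 50 UMIs in each library, and 11 of these were higher in macrophage-like and monocyte-like cells in MGJ and 8 in MGJ2, where 13% and 7.45% of all genes were. Their median ratio was 5.06 and 3.79, against 0.781 and 0.635 for all genes. Pycard, the adaptor between NLRP3 and caspase-1, held 174 CPM in monocyte-like cells of MGJ but was highest in pre-B cell-like cells of MGJ2 (211 CPM). Gsdmd, the pore-forming gene, was highest in osteoclast-like cells, at 55.3 and 51.0 CPM.

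The genes whose level over the 29 classes of both libraries was most like that of each member were also listed, by Pearson's r of log2(CPM + 10). Points share libraries and depth, so r is a description. Nlrp3 was closest to Clec4d (0.975), Il1b to Lilrb4a (0.935), and Il1rn to Gla (0.916). Il1a was closest to Arg2 (0.897), Il1r1 to Aplp1 (0.933) and Il1r2 to Rasgrp4 (0.812). Il1rap was closest to Gm12708 (0.934) and Il1f9 to Gm20406 (0.936). Il18 and Casp1, the members with the fewest UMIs in MGJ, were closest to Mdm2 (0.781) and Psme2 (0.827). Among members, Il1rap and Il1f9 were the most alike pair (0.907), and Il1b with Nlrp3 followed (0.899), whereas Il1r1 and Il1rap had an r of -0.0870.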

How the data were processed

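The deposited files held raw UMI counts per gene and barcode (10x Genomics 3′ V3), which the authors made with Cell Ranger (version 4.0.0 per the file headers). The submitters' processing notes also name GRCm38 and Seurat. The counts were not normalised. Barcodes with at least 200 genes and at most 20% mitochondrial UMIs were kept, and doublets called by Scrublet (scanpy 1.11.5) were removed. Cells of both libraries were scaled to 10000 UMIs, log-transformed and reduced to 30 principal components of 2000 variable genes, without genes of the family, its signalling chain or the inflammasome. A shared-neighbour graph (15 neighbours) was clustered with leidenalg 0.10.2 (resolution 1). Graph edges were set after the clusters' leading genes had been seen. Clusters were named from 27 marker lists, and classes with at least 50 cells in a library were reported. Member UMIs were summed per class and library. Intervals at the 95% level were exact Poisson, exact binomial or exact conditional binomial, computed with scipy 1.17.1, and a count of 0 was given a limit of 3 counts. With 1 library per label and no day assigned, no p-value was computed. The code was tested on simulated data. The 10 members and the gene lists were chosen with earlier results of these data known. The named genes were the members, the listed genes of the pathway and, for each member, the closest gene over 29 classes. Alternatives were other cluster resolutions, naming rules, filters, doublet treatment, thinning and weighting.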

Additional observations from a re-analysis of the deposited data

Results flagged for a closer look

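Member UMIs were also present in the barcodes left out of the comparisons (those with few genes, many mitochondrial UMIs or a doublet call), 975 in MGJ and 425 in MGJ2, in each case more than 3 UMIs (0.811 and 0.992 CPM). Among the ligand genes, Il1b stood at 893 CPM in MGJ and 1907 CPM in MGJ2, Il1a at 106 and 48.3 CPM, Il1f9 at 45.4 and 134 CPM, and Il18 at 10.01 and 8.93 CPM. The antagonist gene Il1rn stood at 533 and 911 CPM. Among the receptor genes, Il1r1 stood at 34.3 and 7.61 CPM, Il1r2 at 64.9 and 213 CPM, and Il1rap at 28.4 and 36.7 CPM. Nlrp3 stood at 154 and 440.0 CPM, and Casp1 at 8.11 and 12.2 CPM. Most Il1b UMIs of these barcodes came from doublet calls. Barcodes left out for few genes or mitochondrial UMIs held 542 of the 3303 Il1b UMIs in MGJ (376 CPM) and 176 of 5764 in MGJ2 (428 CPM). In MGJ2 they held 0 UMIs of Il18.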

How the results depend on the processing

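The ratios of 4 members in both libraries were recomputed under 9 planned settings and under 2 chosen after seeing the data (a graph of all pairs, and family genes kept in the clustering). Of 88 ratios, 57 moved by less than the counting interval, 28 moved by more and 3 reversed. The 3 were Il1b in neutrophil-like cells at Leiden resolution 0.5 (0.790 in MGJ and 0.950 in MGJ2) and with cells named by marker score (0.786 in MGJ2). The other values of this ratio in MGJ were 5.08 with low-UMI clusters named, 2.26 by marker score, 3.28 with all pairs, 3.27 with family genes kept, 1.22 at 10% mitochondrial UMIs, 3.28 with doublet calls kept, 3.20 with libraries clustered separately and 1.72 with every cell weighted equally. In MGJ2 they were 1.51 with doublet calls kept, 1.17 clustered separately and 2.11 weighted equally. For Il1r2 in MGJ they were 19.5 with low-UMI clusters named, 4.31 at resolution 0.5, 7.47 by marker score, 5.93 at 10% mitochondrial UMIs, 12.6 clustered separately and 2.90 weighted equally. In MGJ2 they were 11.9 at resolution 0.5, 4.37 by marker score, 13.2 with doublet calls kept, 14.1 clustered separately and 25.6 weighted equally. Il1r1 in stromal and vascular classes of MGJ stood at 3.57 by marker score, 4.80 clustered separately and 9.07 weighted equally, and in MGJ2 at 9.83 weighted equally. Il18 in macrophage-like and monocyte-like cells stood at 3.05 at resolution 2 in MGJ and at 2.596 weighted equally in MGJ2. The cause was not tested. Of 212 levels and shares, 74 moved by more than the counting interval and 0 reversed, though a level has no direction to reverse. Among 10 alternatives, monocyte-like cells stayed highest in Il1b in MGJ in 10, and basophil-like cells in MGJ2 in 7. No paired analysis was possible because the labels give neither library a group. Intervals cover counting error only and not the spread between mice.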
